A study of Mus musculus with 6 samples.

Results

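The genes described here build and regulate the actin cytoskeleton and the contractile apparatus, and they were followed in RNA-seq libraries of MC3T3-E1 osteoblasts given corticosterone. They are 49 genes taken from a list of symbols, sorted into groups by what their proteins do. No measured value enters the rule that picks them, but the list was drawn up with earlier results of these data known. All 49 have a row among the 24016 mouse genes of the table.

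MC3T3-E1 subclone 4 is a clonal preosteoblast line from mouse calvaria, labelled wild type, so each culture comes from the same clone. All 6 cultures were differentiated for 6 days in ascorbic acid at 50 µg/ml with β-glycerophosphate at 10 mM, and the labels also list 10 nM calcitriol. Afterwards, for 24 h, 3 cultures received vehicle and 3 received corticosterone at 100 nM, which is the chief glucocorticoid made by mice. The labels call the 3 cultures of each group biological replicates. The limma p-values set group differences against the spread between cultures, moderated by a variance trend over all genes. Osteoblast identity was checked on 10 markers. *Col1a1*, the main collagen of bone, was at a normalized count of 624028 to 728294 in every library, and *Phex* lay between 0.772 and 9.94. Of the 10 markers, 7 were lower with corticosterone and 1, *Spp1*, was higher. *Runx2*, *Sp7*, *Bglap* and *Ibsp* fell the most, at log2 fold changes of -1.16, -1.34, -1.87 and -1.20. These 4 kept their calls when any 1 library was left out (limma adjusted p up to 0.012), though *Ibsp* lost its call without a variance trend (0.056). The call of *Alpl* was lost without vehicle replicate 2 or 3 or corticosterone replicate 3 (limma adjusted p up to 0.12). That of *Col1a1* was lost without vehicle replicate 1 or 3 or corticosterone replicate 1 or 2 (up to 0.19), with higher minimum means and after quantile normalization, and that of *Spp1* under upper-quartile scaling (0.073). Without a variance trend the calls of *Alpl* (0.213), *Col1a1* (0.256) and *Spp1* (0.115) were lost as well. The part of these markers in the changes described here was not tested. In RNA of whole cultures, fewer cells of a type and less RNA per cell cannot be told apart. The libraries held 16020401 to 25638645 reads on genes. Each corticosterone library (16020401 to 18992332) was shallower than each vehicle library (19076586 to 25638645). The values are normalized counts, meaning reads divided by 1 size factor per library.

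Actin filaments are polymers that cells bundle, crosslink and stiffen with tropomyosin, and that non-muscle myosin II pulls on to make stress fibres contract. Stress fibres end in focal adhesions, where talin and vinculin couple them to integrins. RhoA acts through the ROCK kinases to raise myosin light chain phosphorylation, Rnd3 counteracts it, and the transcription factor SRF reads the pool of free actin through its cofactor MRTF and switches on many genes of the actin machinery. In osteoblasts this system carries spreading, adhesion and the response to matrix stiffness.

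More of these genes were higher than lower after corticosterone. At an adjusted p under 0.05 (limma, Benjamini-Hochberg over all 24016 genes), 27 of the 49 were higher and 5 were lower. That is 55.1% higher and 10.2% lower, beside 8.49% higher and 8.2% lower among all genes tested. Most of the 49 are abundant transcripts. Among the 10558 genes with a mean normalized count of at least 100, where calls are more frequent, 17.1% were higher and 15.5% lower, and of the 44 members at that level 25 were higher and 4 were lower. The median log2 fold change, corticosterone minus vehicle, was 0.19 over all 49 and over those 44, against -0.01 over all genes.

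Most of the changes were small. Only *Cnn1* and *Rock2* also had a log2 fold change over 1, the size the study required, and 0 were below -1, while 1.38% of all genes passed that threshold upwards and 1.4% downwards. Without overlap between the groups, 30 members were higher and 5 lower in all 3 corticosterone libraries, where 14.7% and 14.9% of all genes were. At a mean of at least 100, 28 of the 44 members were higher without overlap and 4 lower. Of the 10558 genes at that level, 2597 were higher and 2573 lower in this way. Together the members took 1.93 to 1.99% of the reads on genes with vehicle and 2.11 to 2.16% with corticosterone.

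None of the called members turned direction under the 3 other scalings tried, but the number of calls changed. Of all called genes, 50.9% were higher. This share was 34.2% under upper-quartile scaling, 40.3% when libraries were scaled to the same total and 46.3% after quantile normalization. Among called members the share was 84.4% in the main fit, and 80.8%, 83.3% and 78.6% under these 3 scalings. Without a variance trend in limma, 11 members were higher and 4 lower. *Flnc*, *Fscn1*, *Synpo*, *Cnn1*, *Lmod1*, *Mylk*, *Pdlim5*, *Csrp1*, *Fhl2*, *Ezr* and *Rock2* passed as higher in that fit, and *Palld*, *Tpm1*, *Rnd3* and *Vim* as lower. The other calls among the 49 genes were lost in it.

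**Figure D1:**
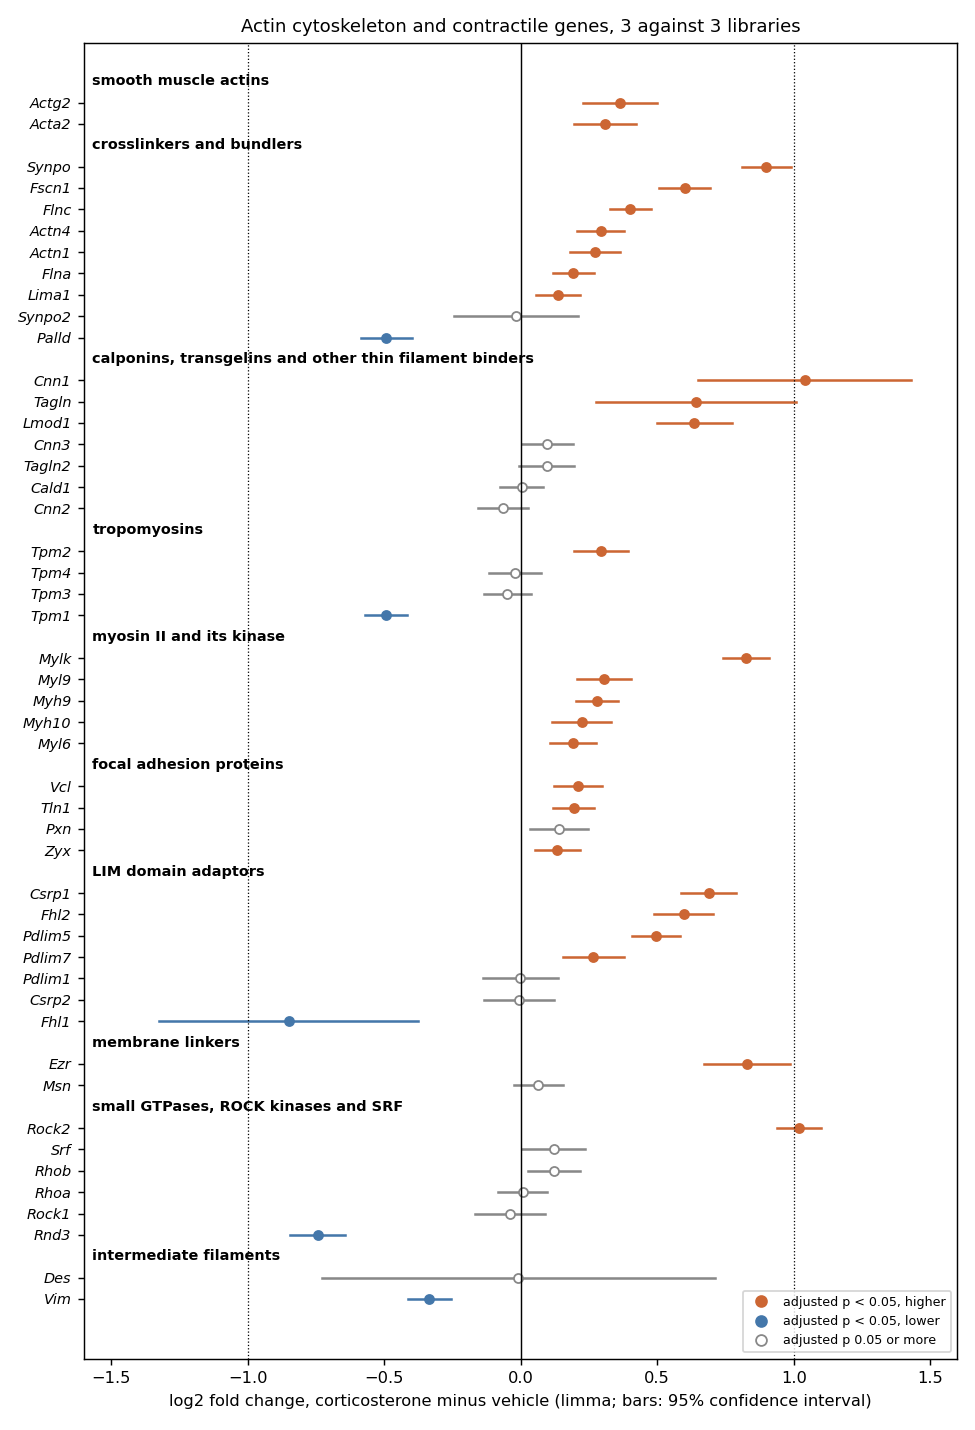
Log2 fold change (corticosterone minus vehicle, limma, 3 against 3 libraries) on the x axis for 48 of the 49 genes, grouped by role on the y axis. Points are estimates, bars are 95% confidence intervals, filled points have an adjusted p under 0.05 and dotted lines mark a log2 fold change of 1 in either direction. *Pdlim3*, with at most 1 read per library, is left out. Most filled points lie between 0 and 1, *Cnn1* and *Rock2* lie just past 1, and *Fhl1*, *Rnd3*, *Tpm1*, *Palld* and *Vim* lie below 0.

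SRF binds a short A and T rich element known as the CArG box, and start sites of the members were searched for it. RefSeq promoter windows of GRCm38.p6, from 250 bases before to 50 after each start site, were found for 43 of the 49 genes. A CArG box, searched on both strands, lay in windows of 9 of the 43 genes (20.9%), namely *Cnn2*, *Fhl1*, *Fhl2*, *Lima1*, *Myl6*, *Myl9*, *Rnd3*, *Srf* and *Vcl*. Over all genes with a window the share was 1.81%. The members were chosen for their function, so the high share describes the choice and was not tested. The boxes were not restricted to genes that moved one way. They lay in windows of 5 of 24 higher genes, 2 of 5 lower genes and 2 of 14 that passed in neither direction. The stretches below show boxes of a pair of genes that fell, *Fhl1* and *Rnd3*, and a pair that rose, *Fhl2* with its 2 start sites and *Myl9*. They are written 5′ to 3′ on the strand of the gene, upstream of the start site, with the CArG box in capitals.
Fhl1, chrX:56779556-56779615, plus strand: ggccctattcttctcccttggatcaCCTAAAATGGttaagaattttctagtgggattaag
Rnd3, chr2:51149177-51149236, minus strand: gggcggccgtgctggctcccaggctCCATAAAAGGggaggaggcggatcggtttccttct
Fhl2, first start site, chr1:43196823-43196882, minus strand: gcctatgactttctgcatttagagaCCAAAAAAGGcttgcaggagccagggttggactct
Fhl2, other start site, chr1:43163962-43164017, minus strand: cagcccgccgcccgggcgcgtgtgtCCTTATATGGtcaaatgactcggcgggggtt
Myl9, chr2:156775278-156775337, plus strand: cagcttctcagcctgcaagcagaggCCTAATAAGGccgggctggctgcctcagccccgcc
The box began 102 bases before the start site in *Fhl1*, 100 in *Rnd3*, 96 and 31 in *Fhl2* and 161 in *Myl9*. The *Fhl1* stretch lies inside the annotated gene, which begins at position 56731787, so its start site is an internal one. The windows with a box in *Lima1* and *Myl6* lie inside their genes as well. The MCAT box CATTCC, the element of the TEAD factors, was searched on both strands and lay in windows of 13 of the 43 genes (30.2%), *Acta2*, *Tpm1*, *Mylk* and *Flna* among them, and in those of 16.6% of all genes. The palindromic glucocorticoid response element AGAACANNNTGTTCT lay in 0 of the 43 and in windows of 3 of all 27025 genes. A match is a description of these letters in this window, not a binding site.

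Both smooth muscle actins rose. *Acta2* (chromosome 19, 34241090 to 34255590, minus strand) encodes smooth muscle α-actin, an actin of contractile stress fibres. Its normalized count was 22350, 19472 and 21658 with vehicle and 26609, 24336 and 27620 with corticosterone. All 3 treated libraries lay above the highest control library, and the log2 fold change between the group means was 0.31 (SE 0.05, limma adjusted p = 0.00053). *Actg2*, the enteric γ-actin, rose by 0.36 (SE 0.06, adjusted p = 0.00057). Within each library *Actg2* stayed at about the same share of *Acta2*, with ratios of 0.0981 to 0.105 and 0.103 to 0.109 that overlapped between the groups (two-sided exact permutation p = 0.3). The cytoplasmic actins, which are not members, had log2 fold changes of 0.12 for *Actb* (adjusted p = 0.069) and 0.02 for *Actg1* (adjusted p = 0.86). *Actb* passed with edgeR (0.036) and with DESeq2 (0.015). Per kilobase of transcript, *Acta2* made up 17.04% ± 0.442 (SD, n = 3) of the summed level of these 4 actins with vehicle and 19.3% ± 0.681 with corticosterone, the treated libraries again all above the controls.

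The crosslinkers and bundlers, which set how filaments are spaced, included 7 of 9 genes that rose. The largest change was that of *Synpo*, synaptopodin, an actin-associated protein that binds α-actinin. Its normalized count went from 6489, 6780 and 6264 to 11982, 11787 and 12648, a log2 fold change of 0.90 (SE 0.04, limma adjusted p = 2.3e-10). The 2 groups were far apart compared with the spread within each. *Fscn1*, fascin, which packs filaments into the parallel bundles of filopodia, had 19163, 17425 and 18057 with vehicle and 27387, 26501 and 28967 with corticosterone (log2 fold change 0.60, SE 0.04, adjusted p = 4.4e-08). It was thus higher by 51.6% on the means, in the gene with the highest level of the group per kilobase. Filamin A, *Flna*, took the most reads of these crosslinkers and went from 28233, 28130 and 28750 to 32520, 32310 and 32431 (0.19, SE 0.04, adjusted p = 0.00078). *Flnc*, the filamin of muscle, rose by 0.40 (SE 0.03, adjusted p = 3.2e-07). In every treated library *Flnc* made up more relative to *Flna* (ratio 0.775 to 0.792) than in any control library (0.675 to 0.685).

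The α-actinins *Actn1* and *Actn4* rose by log2 fold changes of 0.27 and 0.29, and their ratio overlapped between the groups (exact permutation p = 1). *Lima1*, the filament stabiliser EPLIN, rose by 0.14 (limma adjusted p = 0.02). *Palld*, palladin, a scaffold of stress fibres and an α-actinin partner like *Synpo*, moved the other way. It fell in every treated library, from 5897, 6322 and 6297 to 4532, 4227 and 4400 (log2 fold change -0.49, SE 0.04, adjusted p = 3.7e-07). *Synpo2*, the paralog of *Synpo*, had 251 to 322 with vehicle and 265 to 319 with corticosterone, and a log2 fold change of -0.02 with a 95% confidence interval of -0.24 to 0.21. The call of *Lima1* was lost under upper-quartile scaling (adjusted p = 0.44), quantile normalization (0.52) and scaling to the same total (0.097). It was also lost when vehicle replicate 1 or 3 or corticosterone replicate 1 or 3 was left out (adjusted p up to 0.081). *Flna* was not called under upper-quartile scaling (adjusted p = 0.092).

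Among the thin filament binders, 3 of 7 rose and 0 fell. *Cnn1*, calponin 1, is a classical marker of smooth muscle that restrains myosin on the filament. It was rare here, at a normalized count of 46.2, 56.3 and 53.8 with vehicle and 103.9, 88.4 and 133.0 with corticosterone, with 52 reads in the library with the fewest. The groups did not overlap and the log2 fold change was 1.04 (SE 0.18, limma adjusted p = 0.00059). Without vehicle replicate 1 it was 0.96 and without corticosterone replicate 3 it was 0.88, below the size of 1 that the study required. *Tagln*, transgelin or SM22, another smooth muscle marker, was as rare, with 58.4, 54.8 and 59.99 against 85.7, 79.5 and 107.5 (log2 fold change 0.64, SE 0.17, adjusted p = 0.015). Its value is uncertain, since 67.9% of its exonic bases overlap *Gm48529* and *Pcsk7* on the opposite strand, and its call was lost without vehicle replicate 2 or 3 or corticosterone replicate 3 (adjusted p up to 0.083). *Lmod1*, leiomodin, which starts new filaments in smooth muscle, was more abundant per kilobase and rose from 1199, 1012 and 1143 to 1793, 1615 and 1799 (0.64, SE 0.07, adjusted p = 2.0e-06).

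The abundant genes of that group moved little. *Cald1*, caldesmon, the brake on actin and myosin interaction, took the most reads of the group and had no difference beyond its spread, with 33811, 32346 and 32471 with vehicle and 33342, 33182 and 32333 with corticosterone. Its log2 fold change was 0.00, with a 95% confidence interval of -0.08 to 0.08. *Cnn2* and *Cnn3*, the calponins of non-muscle cells, had log2 fold changes of -0.06 and 0.10 (adjusted p = 0.39 and 0.16), and *Tagln2* had 0.09 (adjusted p = 0.23). Per kilobase, *Cnn1* was only 0.164% ± 0.0224 of the summed calponin level with vehicle and 0.339% ± 0.0576 with corticosterone, so nearly all calponin mRNA of these cells was *Cnn2* and *Cnn3* in both groups.

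The tropomyosins did not move together. *Tpm1*, the most abundant of the 4 both in normalized count and per kilobase, fell from 18859, 19456 and 18804 to 13436, 13393 and 13759 (log2 fold change -0.49, SE 0.04, limma adjusted p = 4.1e-08). *Tpm2* rose by 0.29 (SE 0.05, adjusted p = 0.00021). *Tpm3* and *Tpm4* had log2 fold changes of -0.05 (adjusted p = 0.51) and -0.02 (adjusted p = 0.83). The *Tpm2* to *Tpm1* ratio of normalized counts within a library was 0.254 to 0.264 with vehicle and 0.430 to 0.474 with corticosterone. The exact permutation test gave p = 0.1 for this ratio, the smallest it can give for 3 against 3 (two-sided), and 0.123 after adjustment over 16 such pairs. The same values hold for every other ratio given here whose groups did not overlap. Per kilobase, *Tpm1* made up 50.2% ± 1.36 (SD, n = 3) of the tropomyosin level in vehicle cultures and 40.9% ± 0.337 in treated ones, while *Tpm2* made up 11.8% ± 0.163 and 16.6% ± 0.738. Gene values cannot show which of the many tropomyosin isoforms changed, and *Tpm3* shares 27.0% of its 31-base words with the copy *Tpm3-rs7*. *Tpm3* passed as lower under quantile normalization (adjusted p = 0.011).

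**Figure D2:**
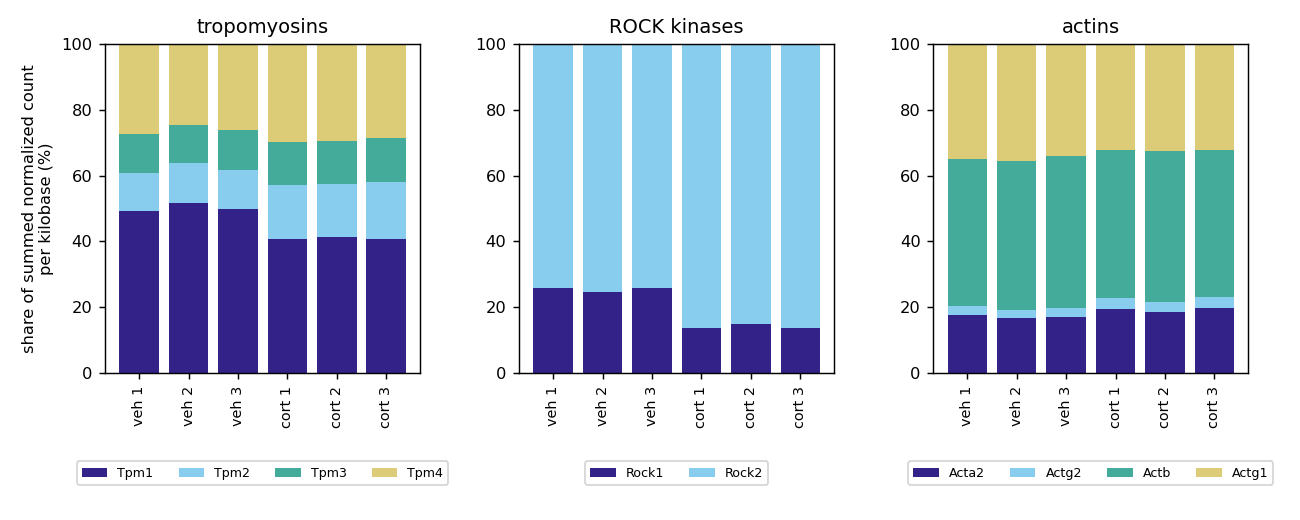
Share of the summed normalized count per kilobase, in percent on the y axis, taken by each tropomyosin, each ROCK kinase and each of 4 actins in the 3 vehicle (veh) and 3 corticosterone (cort) libraries. The *Tpm1* share is 49.2 to 51.8% in vehicle libraries and 40.6 to 41.3% in treated ones, the *Rock2* share is 74.1 to 75.4% and 85.1 to 86.5%, and the *Actb* share overlaps between the groups.

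All 5 genes of myosin II and its kinase rose. *Mylk*, myosin light chain kinase, which phosphorylates the regulatory light chain and so switches the motor on, rose the most. Its normalized count was 5453, 5236 and 5638 with vehicle and 9592, 9691 and 9632 with corticosterone, a log2 fold change of 0.83 (SE 0.04, limma adjusted p = 2.7e-10). The 3 treated values differed from each other by far less than from the controls. *Myh9*, the heavy chain of non-muscle myosin IIA, went from 24836, 24218 and 25398 to 30060, 29687 and 30644 (0.28, SE 0.04, adjusted p = 3.1e-05). *Myh10*, the heavy chain of myosin IIB, rose by 0.22 (SE 0.05, adjusted p = 0.0056), and the ratio of the heavy chains overlapped between the groups, at 4.14 to 4.65 and 4.44 to 4.58. The regulatory light chain *Myl9* rose by 0.30 and the essential light chain *Myl6* by 0.19, with adjusted p of 0.00016 and 0.0024. Without corticosterone replicate 3 the call of *Myh10* was lost (adjusted p = 0.092), as it was under quantile normalization (0.11), and that of *Myl6* was lost under upper-quartile scaling (0.12).

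Of 4 focal adhesion genes 3 rose, by small amounts, and 1 did not pass. *Tln1*, talin, which links integrins to actin, went from 11109, 10884 and 11139 to 12456, 12696 and 12732 (log2 fold change 0.19, SE 0.04, limma adjusted p = 0.00093). *Vcl*, vinculin, rose by 0.21 and *Zyx*, zyxin, by 0.13, with adjusted p of 0.0017 and 0.025. *Pxn*, paxillin, had all 3 treated libraries above the controls, yet its log2 fold change of 0.14 missed the threshold (adjusted p = 0.07). It passed with the replicate number as a block (0.047) and with edgeR (0.044). *Zyx* lost its call under each of the 3 other scalings (adjusted p up to 0.61) and without vehicle replicate 3 or corticosterone replicate 1 or 3 (up to 0.13), *Tln1* under upper-quartile scaling (0.077) and quantile normalization (0.064), and *Vcl* under quantile normalization (0.088). Of the exonic bases of *Vcl*, 25.5% overlap *Ap3m1* on the opposite strand.

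The LIM domain adaptors, which bring signalling proteins to the filaments and the adhesions, split by gene. *Csrp1*, a cysteine and glycine rich protein found with α-actinin and zyxin, went from 4844, 4696 and 4497 to 7560, 7086 and 8001 (log2 fold change 0.69, SE 0.05, limma adjusted p = 2.0e-08). *Fhl2*, a transcriptional cofactor that shuttles between adhesions and nucleus, went from 1121, 1110 and 1034 to 1642, 1618 and 1673 (0.60, SE 0.05, adjusted p = 2.8e-07). *Pdlim5*, which ties protein kinases to α-actinin, took the most reads of the group with vehicle, and fewer than *Csrp1* with corticosterone, and went from 5348, 4903 and 5025 to 7154, 7081 and 7273 (0.49, SE 0.04, adjusted p = 2.2e-07). In all 3 genes every treated library lay above every control library. *Pdlim7* rose by 0.27 (adjusted p = 0.0016), a call lost under upper-quartile scaling (0.053).

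*Fhl1*, the member of the same family as *Fhl2* that is best known from skeletal muscle, fell instead. It was rare, at 66.5, 55.6 and 62.1 with vehicle and 32.1, 28.7 and 42.2 with corticosterone, with 26 reads in the lowest library, and its log2 fold change was -0.85 (SE 0.22, limma adjusted p = 0.013). The groups did not overlap, but the call was lost when vehicle replicate 1 or 3 or corticosterone replicate 1 or 2 was left out (adjusted p up to 0.08). The *Fhl2* to *Fhl1* ratio was 16.7 to 20.0 in vehicle libraries and 39.6 to 56.3 in treated ones. *Csrp2* and *Pdlim1* had log2 fold changes of -0.01 and -0.00, with 95% confidence intervals of -0.14 to 0.12 and -0.14 to 0.14, so a difference of the size seen in their relatives *Csrp1* and *Pdlim5* lies outside them. *Pdlim3*, an α-actinin partner of striated muscle, had 0 or 1 read in each library, under the floor of 3 reads in both groups.

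Of the membrane linkers, which tie filaments to the plasma membrane, *Ezr* rose and *Msn* did not pass. *Ezr*, ezrin, went from 1273, 1111 and 1199 to 2111, 1881 and 2396 (log2 fold change 0.83, SE 0.07, limma adjusted p = 4.4e-07). The treated values were all above the controls, though they were more spread than those of *Mylk* or *Rock2*. *Msn*, moesin, its relative with the higher level per kilobase, had 5426, 4984 and 5293 with vehicle and 5537, 5502 and 5373 with corticosterone (0.06, 95% confidence interval -0.03 to 0.15, adjusted p = 0.38). The *Ezr* to *Msn* ratio of normalized counts was 0.223 to 0.235 with vehicle and 0.342 to 0.446 with corticosterone.

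Small GTPase signalling changed at a ROCK kinase and at an atypical GTPase, while *Rhoa* itself differed by less than its spread. *Rock2* (chromosome 12, 16894895 to 16987823, plus strand), the ROCK kinase with the higher level per kilobase, went from 3657, 3602 and 3601 to 7456, 7367 and 7192. It was 2.03-fold higher on the means, with a log2 fold change of 1.02 (SE 0.04, limma adjusted p = 1.6e-11). The size of 1 that the study required was barely passed, and the log2 fold change was 0.95 under upper-quartile scaling, 0.98 with libraries scaled to the same total and 0.94 after quantile normalization. *Rock1*, its paralog, had 988 to 1073 with vehicle and 970 to 1085 with corticosterone (-0.04, 95% confidence interval -0.17 to 0.09). The *Rock2* to *Rock1* ratio was 3.40 to 3.65 in vehicle and 6.79 to 7.58 in treated libraries. Per kilobase, *Rock2* made up 74.6% ± 0.748 (SD, n = 3) of the ROCK kinase level with vehicle and 85.9% ± 0.708 with corticosterone.

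*Rnd3*, also named RhoE, a GTPase that lacks hydrolysis and opposes RhoA and ROCK1, fell in every treated library. Its normalized count was 4204, 3762 and 4098 with vehicle and 2426, 2362 and 2408 with corticosterone, a log2 fold change of -0.74 (SE 0.05, limma adjusted p = 7.7e-09). *Rhoa* had 4524, 4271 and 4213 with vehicle and 4365, 4246 and 4460 with corticosterone (0.01, 95% confidence interval -0.08 to 0.10). Relative to *Rhoa* in the same library, *Rnd3* was at 0.881 to 0.973 with vehicle and at 0.540 to 0.556 with corticosterone. *Rhob* and *Srf* had log2 fold changes of 0.12 each (adjusted p = 0.085 and 0.16). *Rhob* lay above the controls in all 3 treated libraries and passed with edgeR (0.047).

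**Figure D3:**
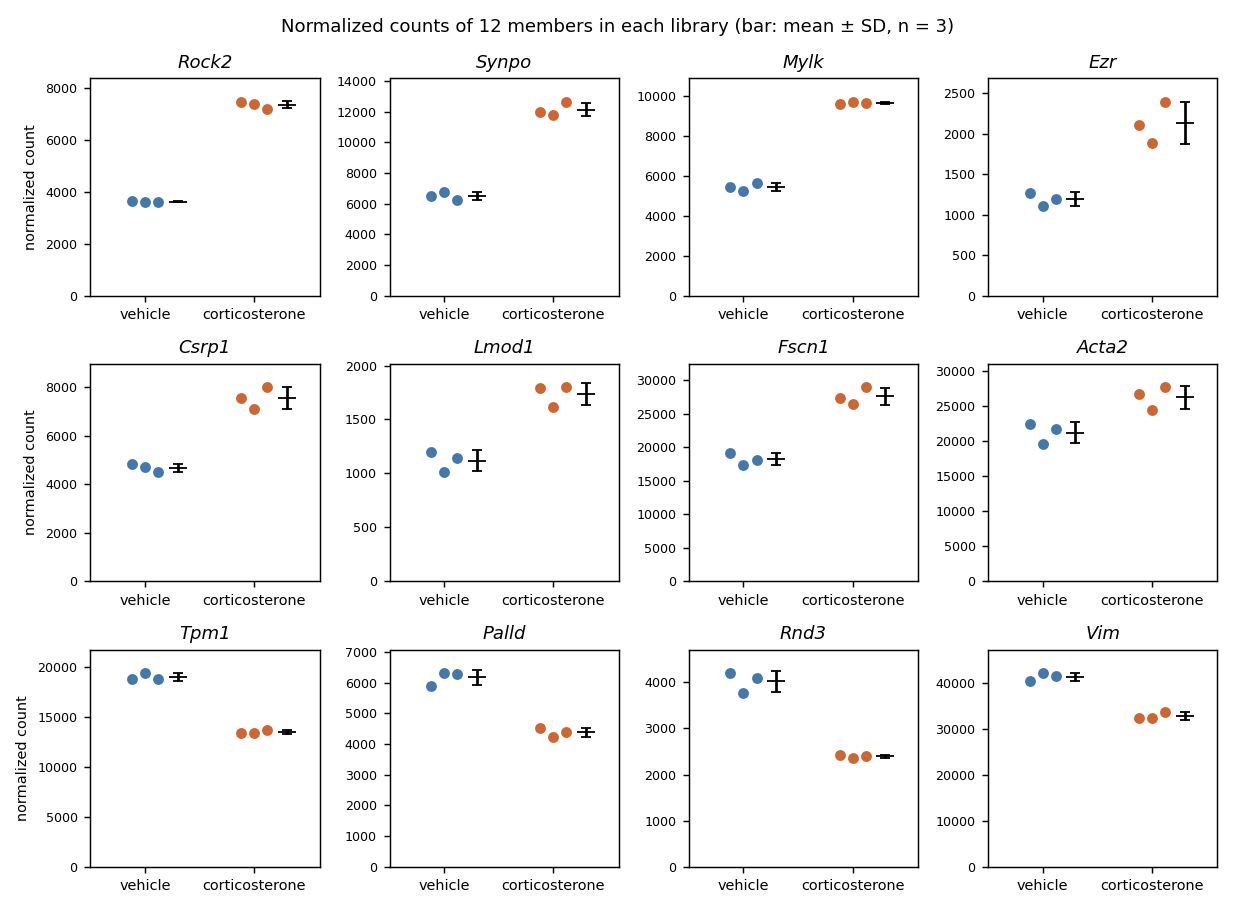
Normalized count (y axis, from 0) of 12 of the genes in each vehicle (blue) and corticosterone (orange) library, with the mean ± SD (n = 3) beside the points. In each panel the groups do not overlap. *Rock2* lies between 3601 and 3657 with vehicle and between 7192 and 7456 with corticosterone, and *Tpm1*, *Palld*, *Rnd3* and *Vim* are lower with corticosterone.

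Of the intermediate filaments, *Vim* fell and *Des* was rare. *Vim*, vimentin, the intermediate filament of mesenchymal cells, took the most reads of all 49 genes with vehicle. It went from 40570, 42286 and 41581 to 32491, 32373 and 33775, a log2 fold change of -0.34 (SE 0.04, limma adjusted p = 5.0e-06). Each treated library lay below each control library. *Des*, desmin, the intermediate filament of muscle, had a normalized count of 15.4 to 23.8 in all libraries and no detectable difference at this depth (log2 fold change -0.01, 95% confidence interval -0.73 to 0.71).

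Per kilobase of transcript, the light chain *Myl6* had the highest level of the 49 genes in both groups. With vehicle, *Myl6* had 20949.8 normalized counts per kilobase, *Vim* 18914, *Acta2* 10398, *Tpm1* 10031, *Cnn2* 8124 and *Cald1* 7966. With corticosterone, *Myl6* had 23927, *Vim* 14993, *Acta2* 12869, *Fscn1* 10325, *Cald1* 7985 and *Cnn2* 7771. *Tpm1* then had 7128. So *Fscn1*, at 6809 with vehicle, and *Tpm1* changed places. At the lower end with vehicle were *Synpo2* (42.1), *Tagln* (36.2), *Fhl1* (26.1), *Cnn1* (21.9) and *Des* (6.78). Below them was *Pdlim3* (0.169), which was under the floor of 3 reads.

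Markers of other cell types were read beside these results. No row was found for 3 of 6 smooth muscle, 3 of 8 skeletal muscle and 2 of 5 endothelial markers. The same was true of 4 of 6 macrophage and blood, 3 of 5 adipocyte and 1 of 4 chondrocyte markers. The counts that follow cover the markers with a row. *Myh11*, the smooth muscle myosin heavy chain, stayed at a normalized count of 2.56 to 6.42 in all libraries. The other smooth muscle markers with a row went in opposite directions, *Smtn* up by a log2 fold change of 0.57 and *Npnt*, which osteoblasts also make, down by -0.94 (limma adjusted p = 1.6e-07 and 2.5e-09). Of 5 skeletal muscle markers 0 passed the test, with a summed normalized count of 28.6 to 46.2 with vehicle and 45.0 to 60.1 with corticosterone. *Myh3* and *Ckm* were at 0 in several libraries. The 3 endothelial markers summed to 0 to 13.0 with vehicle and 2.21 to 14.1 with corticosterone, and 0 of them passed. The 2 macrophage markers summed to 46.5 to 62.4 and 43.5 to 47.5, also without a call. Of 2 adipocyte markers *Fabp4*, a fatty acid carrier, rose from a range of 7.72 to 21.1 to one of 108 to 130.5, while *Plin1* was at 0 in 5 of the 6 libraries. Of 3 chondrocyte markers *Col2a1* and *Sox9* fell and *Col10a1* rose, the call of *Sox9* being lost without vehicle replicate 1 or 3 or any 1 corticosterone library (adjusted p up to 0.20) and that of *Col10a1* without vehicle replicate 3 or corticosterone replicate 1 (up to 0.062). Without a variance trend *Sox9* and *Col10a1* also lost their calls (limma adjusted p = 0.293 and 0.067). The part of these cell types in the results was not tested.

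Around the 49 genes, lists by role held 96 other genes of the same pathways, and 91 of them had a row. Of these, 29 (31.9%) rose and 13 (14.3%) fell, with a median log2 fold change of 0.08. Among all genes 8.49% were higher and 8.2% lower. Most of the 91 are abundant, 82 of them with a mean of at least 100, a level where 17.1% of genes were higher and 15.5% lower. For the 91 genes the split was 22 higher and 19 lower under upper-quartile scaling and 26 and 18 with libraries scaled to the same total. It was 23 and 18 after quantile normalization, and 13 and 5 without a variance trend. Without that trend the calls of *Myl12a*, *Myl6b*, *Lims1*, *Lims2*, *Src*, *Evl*, *Enah*, *Tmod3*, *Limk1* and *Rnd2* were lost. So were those of *Pfn1*, *Capza1*, *Arpc5*, *Fmnl3*, *Tead3*, *Ankrd1* and *Amotl2*. The change was uneven between lists. Of 18 other focal adhesion genes 10 rose and 3 fell, and of 17 genes for monomer binding, capping and severing 6 rose and 2 fell. Of 18 genes of branched and linear filament assembly 2 rose and 2 fell, and of 6 other actins and myosins 1 rose (*Myl12a*) and 1 fell (*Myl6b*). The former call was lost under upper-quartile scaling and quantile normalization (adjusted p up to 0.22), the latter without any 1 library other than corticosterone replicate 3 (up to 0.10).

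The largest difference in any of these lists was that of *Tns1*, tensin 1, which joins integrins to filaments. It went from 524, 639 and 569 to 5169, 5293 and 5209 (log2 fold change 3.18, SE 0.06, limma adjusted p = 5.9e-15). The tensins *Tns2* and *Tns3* rose by 0.56 and 0.66, and *Bcar1*, the adhesion scaffold p130Cas, rose by 0.71. *Zfp185*, a rare transcript, rose by 1.17. *Lims2* was rare as well, at 7.24 to 31.6 with vehicle and 37.5 to 66.3 with corticosterone, and its call was lost without any 1 library other than vehicle replicate 1 (adjusted p up to 0.16). The kinase *Src* and the Ena/VASP protein *Evl* were lower, at log2 fold changes of -0.27 and -0.30. *Enah*, of the same family as *Evl*, had -0.20, a call lost without vehicle replicate 2 or 3 or corticosterone replicate 1 or 3 (adjusted p up to 0.12).

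*Gsn*, gelsolin, which cuts and caps filaments, led the severing and capping list. Its normalized count was 8181, 8363 and 8331 with vehicle and 16765, 16661 and 17457 with corticosterone (log2 fold change 1.03, SE 0.04, limma adjusted p = 9.7e-12). *Dstn*, destrin, rose by 0.46, *Capzb* by 0.36 and *Tmod3* by 0.34, while *Cap2* and *Pfn2* were lower, at -0.75 and -0.37. Cofilin 1, *Cfl1*, had -0.09 (adjusted p = 0.14). Among the 16 genes of small GTPase signalling 4 rose and 3 fell, with *Ssh2*, a cofilin phosphatase, at 0.54 and *Limk1*, a cofilin kinase, at -0.41. *Rnd2*, another of those lower, lost its call without any 1 library other than vehicle replicate 1 (adjusted p up to 0.13). In the capping and severing list, *Pfn1* lost its call without any 1 library other than corticosterone replicate 2 (up to 0.16) and *Capza1* without vehicle replicate 2 or 3 or corticosterone replicate 2 or 3 (up to 0.096). In the assembly list *Arpc5* and *Fmnl3* lost theirs without vehicle replicate 3 (0.058 and 0.081), and among the focal adhesion genes *Lims1* did without vehicle replicate 3 or any 1 corticosterone library (up to 0.14). Under each of the 3 other scalings *Pfn1*, *Capza1* and *Lims1* also lost their calls (limma adjusted p up to 0.998, 0.27 and 0.46). After quantile normalization *Pfn1* was at a log2 fold change of -0.0006. *Arpc5* lost its call under upper-quartile scaling (0.151) and quantile normalization (0.057).

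Of the 8 SRF and YAP cofactors 3 rose and 1 fell. *Mrtfa*, the actin-sensing cofactor of SRF, went from 4365, 3993 and 4077 to 8376, 7958 and 8406 (log2 fold change 0.99, SE 0.04, limma adjusted p = 9.95e-11), whereas *Mrtfb* had -0.01 (adjusted p = 0.96). The *Mrtfa* to *Mrtfb* ratio thus moved from 3.61 to 4.21 in vehicle libraries up to 7.17 to 8.65 in treated ones. *Tead4* rose by 1.82 and *Tead2* fell, at -1.06, the TEAD factors being the DNA-binding partners of YAP. *Tead3* had 0.31, a call lost without vehicle replicate 2 or 3 or corticosterone replicate 1 or 3 (adjusted p up to 0.13). Of 8 early targets of these factors, *Ccn2* rose by 1.54, *Ankrd1* by 0.42 and *Amotl2* by 0.30, *Egr1* fell, at -0.90, and the other 4 did not pass the test, *Ccn1* at 0.14 (adjusted p = 0.10) among them. The call of *Ankrd1* was lost without corticosterone replicate 3 (adjusted p = 0.058).

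**Figure D4:**
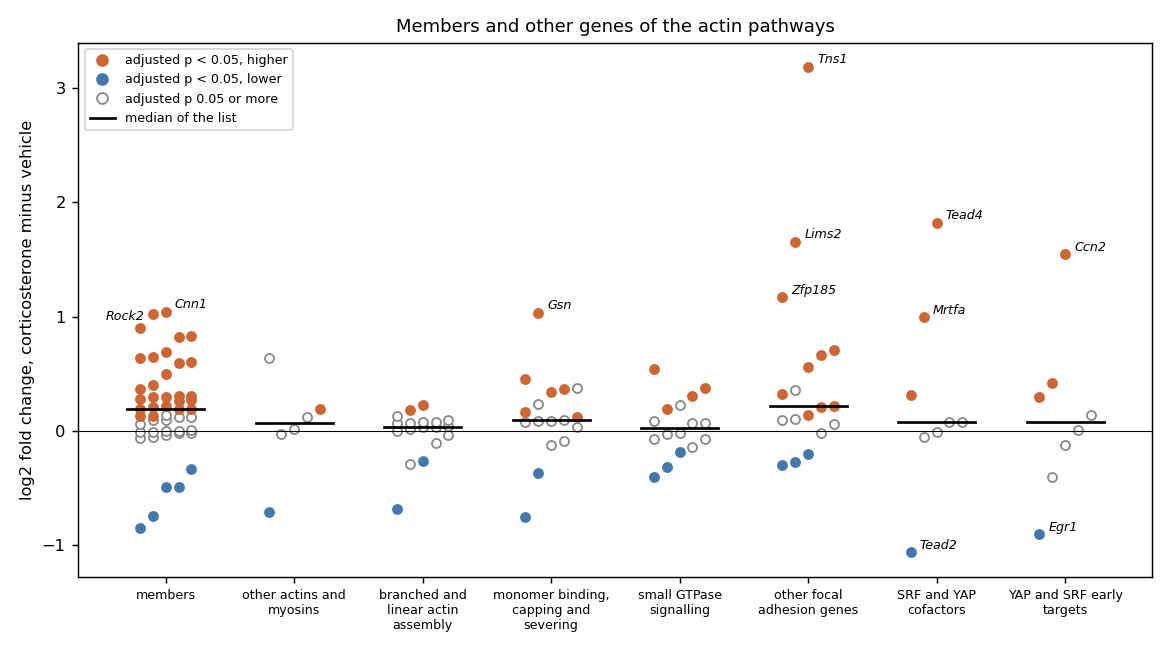
Log2 fold change (corticosterone minus vehicle) on the y axis for each of the described genes (members) and each gene of the 7 other lists of the pathway, with the median of each list as a line. Filled points have an adjusted p under 0.05, and genes at or under the floor of 3 reads are left out. *Tns1* stands highest at 3.18, *Tead4*, *Lims2* and *Ccn2* lie above 1.5, and the medians lie between 0 and 0.3.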

How the data were processed

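RNA of 3 vehicle and 3 corticosterone cultures was sequenced by a commercial Illumina service, and DESeq2 was the authors' own test of differences. The submitters' processing notes name the build mm10. The aligner, the counter and the use of strand are not given in the sources used here. The authors deposited 1 signal per gene and library, named FPKM, yet 100% of the values were whole reads (within 0.01 reads) divided by 1 size factor per library. Gene symbols came from GENCODE vM21 (23983 of 24016 identifiers).

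The main test was limma 3.58.1 (lmFit, eBayes with trend, R 4.3.3) on log2(value + 0.1). A minimum mean of 0.1 removed 0 genes. Log2 fold changes are differences of group means on this scale. Calls had a Benjamini-Hochberg adjusted p under 0.05 over all genes, and the study's threshold also an absolute log2 fold change over 1. The plan already held that the table, named FPKM, had been described as counts divided by a size factor. It set limma on the log scale as the main test and count tools on the recovered reads as alternatives. Genes and lists were chosen with earlier results of these data known. Values per library are given for genes past that threshold, the 12 largest further changes among called genes and the most abundant gene of each role. Such values of *Palld*, *Fabp4*, *Lims2*, *Tns1*, *Gsn* and *Mrtfa* were added after they were seen. Ratios of pairs were compared by two-sided exact permutation tests. Replicate numbers are shared by the groups, but the labels do not say that they pair cultures, so the main test used no block. Deviations of same-numbered libraries correlated by -0.0438, 0.00136 and 0.0234 over 13880 genes. Such values over many genes do not settle whether the cultures were paired.

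Alternatives were pseudocounts of 1 and 0.01, no filter, means of at least 10 and 100, the replicate block, no variance trend, 3 scalings, edgeR 4.0.16 with and without its filter or the block and DESeq2 1.42.0 on the recovered reads, and leaving out each library. The floor of 3 reads, a normalized count of 2.32 to 3.84, covers counting error only. Overlap was gauged on exons and on shared 31-base words. Levels per kilobase used 1 principal transcript per gene. Promoter windows came from RefSeq. Python 3.11.15 with pandas 2.3.3, scipy 1.17.1 and matplotlib 3.10.9 served for tables and plots.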

Additional observations from a re-analysis of the deposited data

How the results depend on the processing

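Across 20 alternatives, 913 results of single members stayed on the same side of the threshold, 45 lost a call and 13 gained one. Of the called values 0 turned sign, while 34 values without a call did. Calls changed in 21 members and in none of the alternatives for the other 28. The count of higher members was 27 and became 11 without a variance trend. It lay between 21 and 30 in all other settings, with 4 to 6 lower, and leaving out 1 library gave 23 to 28 higher and 4 to 5 lower. With the replicate block it was 28 higher and 5 lower, and only *Pxn* changed its call. The labels do not say whether the numbers pair the cultures. The median log2 fold change, 0.193, was 0.124 under upper-quartile scaling, 0.151 with libraries scaled to the same total and 0.106 after quantile normalization, settings that also moved the median of all genes, to -0.08, -0.05 and -0.02. Members past the study's threshold upwards were 2. There were 0 under upper-quartile scaling and scaling to the same total, and 1 after quantile normalization and among genes with a mean of at least 100, where *Cnn1* was not tested. Leaving out 1 library gave 1 to 2 upwards and 0 to 1 downwards. The count of 1 upwards came without vehicle replicate 1 and without corticosterone replicate 3, where *Cnn1* was under a log2 fold change of 1, and without the latter *Fhl1* reached -1.01. Apart from the smaller set tested and these library values, the cause was not tested. Depth limits *Cnn1*, *Tagln*, *Fhl1*, *Des* and *Pdlim3* most.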
